A study of Drosophila melanogaster with 6 samples.

Results

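Insulin, FoxO and TOR form the signalling chain inside the cell that reads nutrient supply, and 9 of its genes were followed here in flies raised with or without added glucose. The genes are InR, chico, foxo, Thor, S6k, Tor, Tsc1, gig and Rheb, taken by symbol from the list of genes the authors compared and matched by FlyBase identifier to the count of each library. All 9 were found among the 17737 genes counted and all 9 passed the filter on low counts. InR and Thor, which FoxO activates, were set against the other 7 genes. Adult w1118 males developed on cornmeal food, were moved at emergence as virgins to a chemically defined (holidic) food, and were kept there for 20 days at 25°C. One group received the unmodified food (HF) and the other food of that recipe into which glucose was added at 50 g/L (GSF), and 3 libraries were made per group, each from 5 whole flies. RNA therefore came from all tissues at once, so fewer cells of a type and less RNA per cell cannot be told apart.

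Insulin-like peptides bind the receptor InR, which acts through the substrate Chico and a phosphoinositide kinase to activate Akt. Akt keeps the transcription factor FoxO out of the nucleus, and it also restrains the Tsc1 and Gigas (Tsc2) complex, which holds back the small GTPase Rheb and thereby the kinase Tor. Active Tor phosphorylates S6 kinase, which promotes translation, and the translation repressor encoded by Thor, which it switches off. When insulin signalling is low, nuclear FoxO raises transcription of InR and Thor, so transcripts of this pair are often read as a sign of FoxO activity. Most of this chain is regulated by phosphorylation and location of the proteins, which transcript counts do not measure.

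Between 51826530 and 66493536 reads per library fell on genes, and values below are CPM, the count of a gene scaled to a fixed library total, after normalisation of the libraries by edgeR's TMM method. Genes annotated as ribosomal RNA took 15.8% to 16.4% of the counts on HF and 18.3% to 21.9% on GSF. Markers of muscle, testis, accessory gland, eye and neurons, hemocytes and tubules were present in all libraries, and germline and yolk genes of females were scarce, with 10.9 to 15.9 CPM in the sum of 7 genes. The summed level of 7 gut markers was 1277 to 1755 CPM on HF and 815 to 1181 CPM on GSF, with 2 of the 7 lower past the threshold (3.14% of all tested genes were). Most of this sum was betaTry and Jon65Aiv. In the same list mex1 was higher on GSF without overlap (26.5 to 30.3 CPM on HF, 32.8 to 37.0 CPM on GSF, 12.3% of all tested genes). Lower without overlap (12.9% of all tested genes) were Jon65Aiv, mag and Npc2f. Npc2f was at 7.02 to 11.4 CPM on HF and 3.09 to 5.98 CPM on GSF, and mag at 13.1 to 18.4 and 8.14 to 8.63 CPM. The genes betaTry, Vha100-4 and PGRP-SC1b overlapped. PGRP-SC1b was at 15.1 CPM in GSF replicate 1 and 0.944 to 1.84 CPM in the other libraries. The summed level of 7 fat body markers was 6278 to 7045 CPM on HF and 4784 to 5673 CPM on GSF, with 2 of 6 tested markers lower, the lipogenic enzyme genes Desat1 and FASN1. Lsp2 of that list was also lower without overlap (229 to 604 CPM on HF, 15.4 to 109.9 CPM on GSF). So was Lpin (239.9 to 268 CPM on HF, 216 to 227 CPM on GSF). The lipoprotein gene apolpp was at 1276 to 1525 CPM on HF and 1485 to 2003 CPM on GSF, with overlap. The gene fit overlapped too, and the larval marker Fbp1 was near 0 in every library. Of the other lists, 1 muscle marker (fln) was lower and 1 hemocyte marker (eater) higher past the threshold. Of the 7 neuron and eye markers 0 passed. Their genes elav (26.2 to 26.7 CPM on HF, 28.5 to 33.3 CPM on GSF), nSyb and Syt1 were higher on GSF without overlap (12.3% of all tested genes were). The eye gene ninaE was lower without overlap (2487 to 2713 CPM on HF, 2132 to 2432 CPM on GSF, 12.9% of all tested genes), and Arr2, trp and brp overlapped. The part of these tissue markers in the results was not tested. With ribosomal RNA genes left out, InR differed by 0.398 and Thor by -0.046 on the log2 scale, and 0 of the 9 genes passed.

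None of the 9 genes was differentially expressed between the diets at the thresholds of the study (edgeR's quasi-likelihood test over 13373 genes, with p under 0.01 and, after Benjamini-Hochberg adjustment, under 0.05), where 5.14% of all tested genes passed. InR was the only gene of the 9 with an unadjusted p under 0.05, against 19.7% of all tested genes. DESeq2 placed it past the thresholds, along with other genes (567 higher and 815 lower of 17287). InR was also the only one in which HF and GSF libraries were fully apart, against 25.2% of all tested genes (12.3% with GSF higher, as for InR, and 12.9% with GSF lower). The median log2 fold change of the 9 genes was -0.022, beside 0.008 over all tested genes, and 3 of the 9 lay above 0 (52.3% of all tested genes). A fit blocked on the replicate number placed 1 of the 9, InR, past the thresholds, where 13.3% of all tested genes passed.

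**Figure D1:**
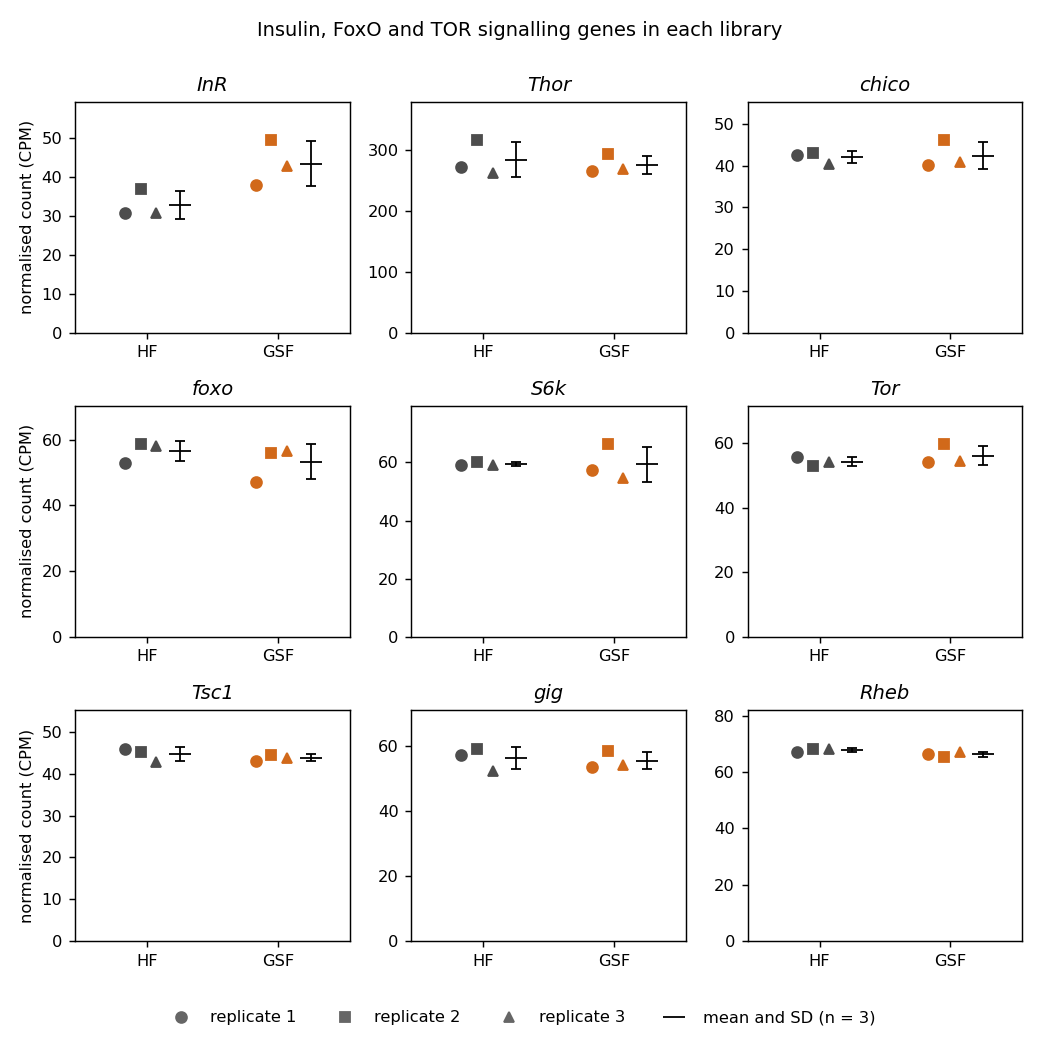
Normalised count (CPM, vertical axis from 0) of each of the 9 signalling genes in the 3 HF (grey) and 3 GSF (orange) libraries. Symbols mark the replicate number and bars the mean and SD. InR lies between 30.7 and 36.9 CPM on HF and between 37.9 and 49.4 CPM on GSF, and the diets overlap in the other 8 genes.

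InR (FBgn0283499, chromosome 3R of BDGP6.54, 21570248 to 21619321, minus strand) encodes the insulin receptor, a receptor tyrosine kinase that is both the entry point of the chain and a FoxO target. It measured 30.7, 36.9 and 30.7 CPM in HF replicates 1 to 3 and 37.9, 49.4 and 42.7 CPM in GSF replicates 1 to 3. The ranges did not overlap, although the lowest GSF value, in replicate 1, was close to the highest HF value, in replicate 2. The means were 32.8 ± 3.6 CPM on HF and 43.4 ± 5.78 CPM on GSF (SD, n = 3), a 1.32-fold difference. The log2 fold change was 0.40 with a standard error of 0.12 and a 95% interval of 0.13 to 0.68. Its unadjusted p was 0.010 and its adjusted p was 0.106, so it did not pass the threshold.

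Libraries that carry the same replicate number, called pairs here, were more alike than other combinations (the values are given with the processing). For pair 1 this was by little, at 0.188 against 0.115 for HF replicate 1 with GSF replicate 2. As its ranges did not overlap, InR was higher on GSF in any pairing. GSF exceeded HF by 0.30 on the log2 scale in pair 1, by 0.42 in pair 2 and by 0.48 in pair 3. Blocked on the replicate number, a choice that rests on these same counts, the log2 fold change was 0.401 with a standard error of 0.056. The adjusted p in that fit was 0.00987, which passed. With single libraries left out and no block, the lowest log2 fold change was 0.299, when GSF replicate 2 was omitted, and the highest was 0.517, when HF replicate 2 was. InR passed in none of these 6 fits, with adjusted p between 0.0756 and 0.290.

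InR is the longest of the 9 genes in exon sequence, with 11367 bp over 4 annotated transcripts, and long genes as a class were higher on GSF. The median log2 fold change was 0.108 over the 486 tested genes of at least 8000 bp, of which 84.4% lay above 0, and -0.018 over the 3170 genes under 1000 bp. When a smooth trend on exonic length was taken out of each library, the InR log2 fold change was 0.275 (adjusted p = 0.147), and 0.278 with the replicate block in the same fit (adjusted p = 0.0224). The InR difference was smaller with the length trend removed and kept its direction, and without the block 0 of the 9 genes passed in that fit, where 5.42% of 13277 genes with a length did.

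Thor (FBgn0261560, chromosome 2L, 3478434 to 3479612, plus strand) encodes the translation repressor 4E-BP, which binds the cap-binding protein eIF4E until Tor phosphorylates it. It is the other FoxO target of the set and is also raised by amino acid stress through ATF4. Thor measured 272, 316 and 263 CPM in HF replicates 1 to 3 and 266, 293 and 269 CPM in GSF replicates 1 to 3. The GSF values lay inside the HF range. The log2 fold change was -0.041 with a standard error of 0.090, a 95% interval of -0.25 to 0.17 and an adjusted p of 0.887. The highest HF value set the direction, since the log2 fold change was 0.062 without HF replicate 2. With the block the standard error fell to 0.058 and the interval ran from -0.18 to 0.10.

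Both FoxO targets were also expressed relative to the other 7 genes in the same library. InR lay below the mean log2 CPM of the other 7 genes by 0.81, 0.57 and 0.79 in HF replicates 1 to 3, and by 0.43, 0.18 and 0.30 in GSF replicates 1 to 3. The InR values relative to the 7 genes did not overlap between the diets. Thor lay above the same mean by 2.34, 2.53 and 2.31 on HF and by 2.38, 2.38 and 2.35 on GSF, and these overlapped. The ratio of InR to Thor CPM was 0.113 to 0.117 on HF and 0.143 to 0.169 on GSF, without overlap. With 3 libraries against 3, an exact permutation test of a single ratio cannot give a two-sided p below 0.1, and no test was made over the pair of targets. The mean log2 fold change of the pair exceeded that of the 7 genes by 0.197, with Thor itself at -0.041 and InR at 0.40.

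**Figure D2:**
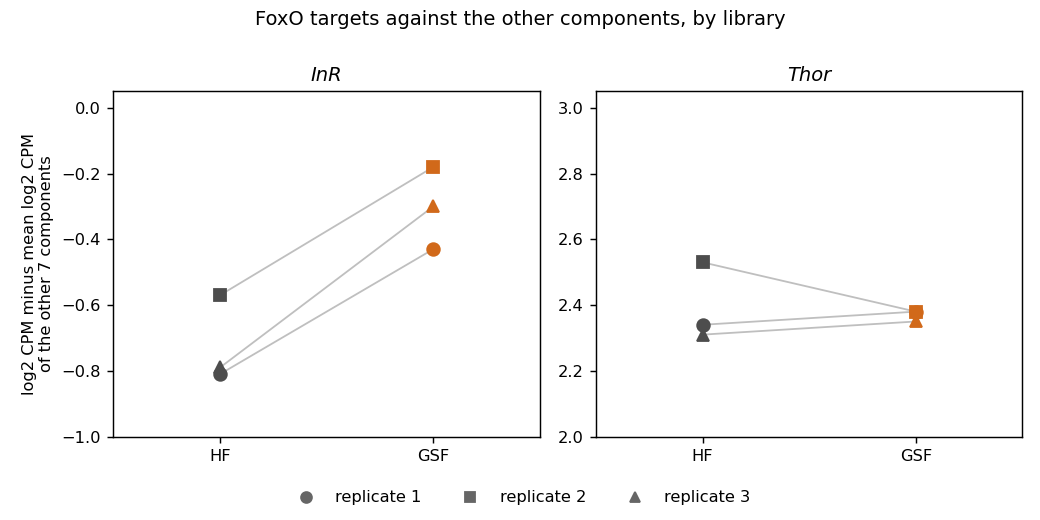
InR (left) and Thor (right) in each library, as log2 CPM minus the mean log2 CPM of chico, foxo, S6k, Tor, Tsc1, gig and Rheb. Grey symbols are HF, orange symbols GSF, and lines join the same replicate number. InR moves from between -0.81 and -0.57 to between -0.43 and -0.18, while Thor stays between 2.31 and 2.53, and both axes span the same width.

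The other 7 genes lay close to 0 between the diets, with log2 fold changes from -0.087 for foxo to 0.048 for Tor and a median of -0.022. The mean of their log2 CPM values corresponded to 53.9, 54.7 and 52.8 CPM in the HF libraries and 51.0, 56.1 and 52.5 CPM in the GSF libraries. The widest 95% interval among them, that of foxo, ran from -0.29 to 0.12. Differences inside these intervals remain compatible with the data at this replication.

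Chico (FBgn0024248, chromosome 2L, 10242512 to 10247078, minus strand) is the insulin receptor substrate, the adaptor that links InR to the phosphoinositide kinase. It measured 42.6, 43.1 and 40.4 CPM on HF and 40.1, 46.1 and 41.0 CPM on GSF. The HF values lay inside the GSF range, and the log2 fold change was 0.013 with a standard error of 0.076 (adjusted p = 0.967). Chico shares 380 bp of its 3578 bp of exon with an antisense RNA on the other strand, and whether the counting used strand is not given in the sources used here. The ratio of receptor to substrate, InR to chico CPM, was 0.722 to 0.856 on HF and 0.946 to 1.07 on GSF, without overlap.

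The transcription factor gene foxo (FBgn0038197, chromosome 3R, 14056945 to 14087978, plus strand) measured 53.0, 58.5 and 57.9 CPM on HF and 47.0, 56.0 and 56.5 CPM on GSF. GSF replicate 1 was the lowest of all libraries, and the rest of the GSF values lay inside the HF range. Its log2 fold change of -0.087 with a standard error of 0.089 was the lowest of the 9 (adjusted p = 0.700), and 57.8% of all tested genes were farther from 0. Without GSF replicate 1 it was -0.005.

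Tor (FBgn0021796, named mTor in the annotation, chromosome 2L, 13004480 to 13013197, plus strand) encodes the kinase at the centre of the growth branch. It measured 55.8, 53.0 and 54.1 CPM on HF and 54.3, 59.6 and 54.5 CPM on GSF. The diets overlapped, with a log2 fold change of 0.048 and a standard error of 0.066 (adjusted p = 0.796). Its substrate S6 kinase, encoded by S6k (FBgn0283472, chromosome 3L, 5797549 to 5810931, minus strand), measured 59.2, 60.1 and 59.1 CPM on HF and 57.5, 66.2 and 54.7 CPM on GSF. The mean of S6k was almost the same on both diets, with 59.5 ± 0.546 CPM on HF and 59.4 ± 6.0 CPM on GSF (SD, n = 3) and a 95% interval of the log2 fold change from -0.19 to 0.19. The GSF libraries of S6k were more spread than the HF libraries, a difference that was not tested. The ratio of Tor to S6k CPM was 0.882 to 0.943 on HF and 0.901 to 0.997 on GSF.

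Tsc1 (FBgn0026317, chromosome 3R, 24130307 to 24134654, plus strand) encodes the stabilising subunit of the complex that inactivates Rheb, and measured 46.0, 45.2 and 42.9 CPM on HF and 43.0, 44.6 and 43.8 CPM on GSF. Its partner gig (FBgn0005198, chromosome 3L, 20129181 to 20139010, plus strand), which encodes the catalytic subunit Tsc2, measured 57.2, 59.1 and 52.3 CPM on HF and 53.6, 58.5 and 54.1 CPM on GSF. Both genes of the complex overlapped between the diets, with log2 fold changes of -0.030 for Tsc1 (standard error 0.062, adjusted p = 0.878) and -0.022 for gig (standard error 0.073, adjusted p = 0.933). The ratio of gig to Tsc1 CPM stayed between 1.22 and 1.31 in all 6 libraries, and it was highest in replicate 2 on both diets. Rheb (FBgn0041191, chromosome 3R, 5568921 to 5570491, plus strand), the GTPase that the complex switches off and that activates Tor, had the lowest coefficient of variation of the 9 genes on GSF. It measured 67.1, 68.4 and 68.4 CPM on HF and 66.4, 65.5 and 67.3 CPM on GSF. The ranges just overlapped, and the log2 fold change was -0.033 (standard error 0.056, adjusted p = 0.838, 95% interval -0.16 to 0.10).

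**Figure D3:**
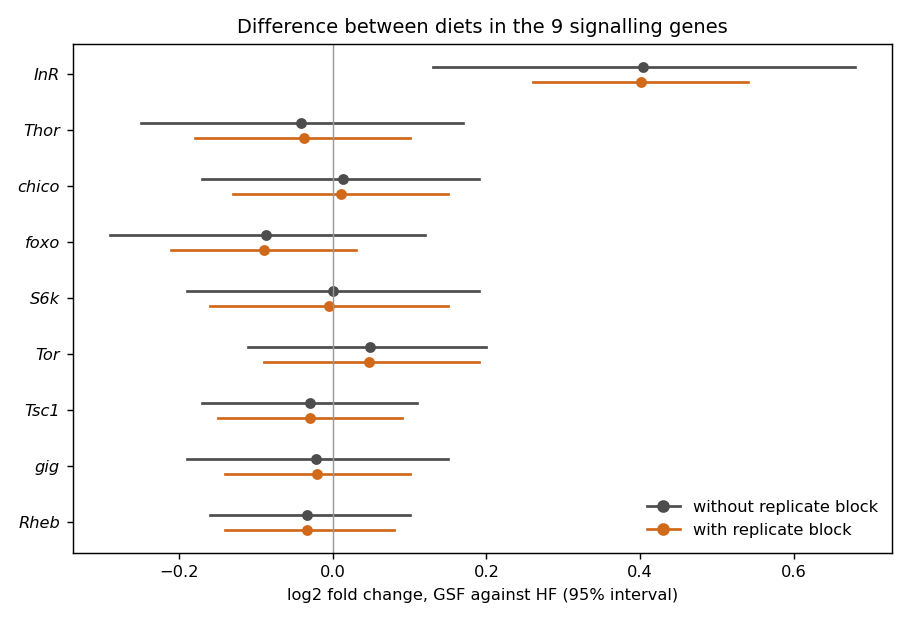
Log2 fold change of GSF against HF (horizontal axis) for the 9 genes, with 95% intervals from edgeR's quasi-likelihood test without (grey) and with (orange) the replicate number as a block. The interval of InR lies above 0 in both fits, at 0.13 to 0.68 and 0.26 to 0.54, and those of the other 8 genes include 0.

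Per length of exon the 9 transcripts spanned a wide range, and the order of the mean levels was the same on both diets. Thor was highest, with 376 ± 37.7 CPM per kb on HF and 365 ± 19.5 CPM per kb on GSF (SD, n = 3). Rheb followed with 55.5 ± 0.618 and 54.2 ± 0.713 CPM per kb. Below these came foxo, S6k, chico, Tsc1, gig and Tor in that order, from 13.7 CPM per kb for foxo to 6.80 CPM per kb for Tor on HF, and InR was lowest with 2.88 ± 0.316 CPM per kb on HF and 3.81 ± 0.509 CPM per kb on GSF. On GSF the libraries of foxo and S6k, of S6k and chico, and of chico and Tsc1 overlapped, and on HF only chico and Tsc1 did among neighbours in this order. The length used is the union of all annotated exons. The level of a gene with several annotated transcripts, such as foxo with 5 or InR with 4, can therefore be understated.

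Counts per library ran from 1580 for InR in HF replicate 1 to 19545 for Thor in GSF replicate 2. For InR on HF the counting error was 2.33% and the coefficient of variation among the 3 libraries 11.0%, and for Thor on GSF these were 0.760% and 5.34%. Thor was more spread on HF, with 284 ± 28.4 CPM against 276 ± 14.7 CPM on GSF (SD, n = 3), and both genes were highest in replicate 2 on either diet. Rheb varied by 1.11% on HF and 1.32% on GSF, under its counting error of 1.62% and 1.55%, as did S6k on HF (0.918% against 1.73%). On GSF, replicate 2 was the highest library for 7 of the 9 genes, against 35.2% of all tested genes. Replicate 2 was the highest on both diets for 5 of the 9, against 14.3% of all tested genes.

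The genes most like InR over the 6 libraries, among 9161 genes with a mean of at least 10 CPM, were Prp4k, kon and Nep3, with Pearson correlations of log2 CPM of 0.996, 0.994 and 0.993. For Thor they were CG31688, CG17834 and Ldh, the lactate dehydrogenase gene, with 0.982, 0.981 and 0.978. These values describe 6 libraries that differ in diet, depth and replicate number. Over them 113 genes followed InR with a correlation over 0.95, while 7 followed Thor. None of the 6 named genes was past the threshold between the diets.

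The genes around the 9 were read from 7 lists of the pathway, with 61 of 62 entries matched and tested. Of these, 2 were higher on GSF and 2 were lower past the threshold, where 2.0% and 3.14% of all tested genes were. At an unadjusted p under 0.05, 11 were higher and 9 lower (9.77% and 9.90% of all tested genes), and the ranges of the diets were apart in 17 with GSF higher and 8 with GSF lower, where 12.3% and 12.9% of all tested genes were. The median log2 fold change over the 61 genes was 0.04, beside 0.008 over all tested genes. With the length trend removed it was -0.01, beside -0.012 over all genes of that fit. With the replicate block 10 were higher and 3 lower, where 6.80% and 6.52% of all tested genes were.

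**Figure D4:**
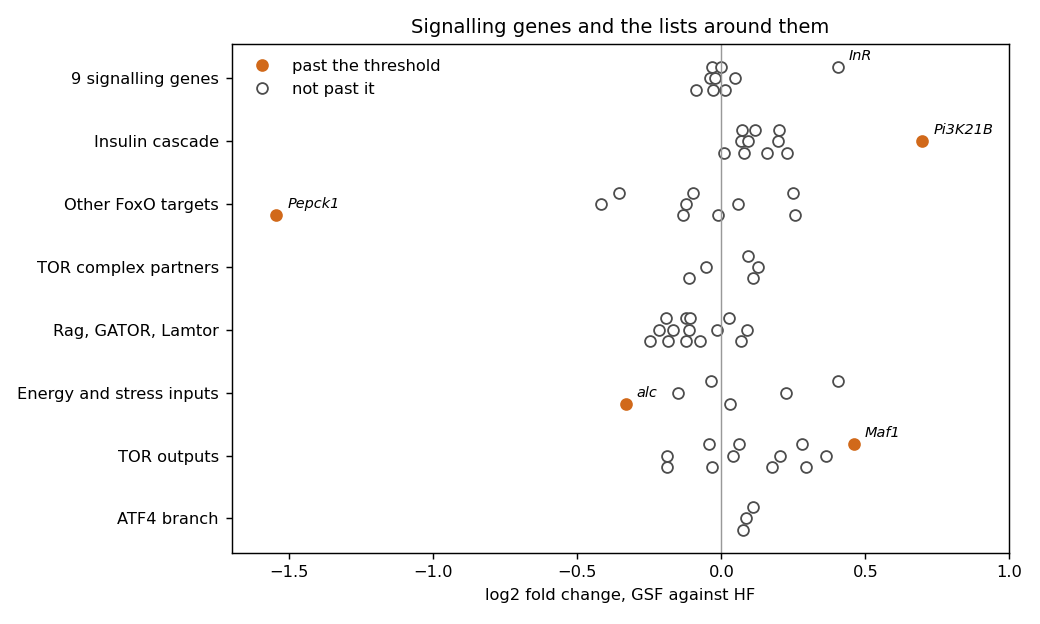
Log2 fold change of GSF against HF (horizontal axis) for the 9 signalling genes and for 7 lists of genes around them, 1 point per gene, filled where edgeR's quasi-likelihood test placed it past the threshold. The points past the threshold are Pi3K21B, Pepck1, alc and Maf1, and InR, at 0.40, stands apart from the other 8 signalling genes.

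The list for the insulin cascade was not limited to forward steps between InR and foxo. All 11 of its genes had a log2 fold change above 0, with a median of 0.12, and 1 passed the threshold. Of all tested genes 52.3% lay above 0 and 5.14% passed. With the length trend removed, 9 of the 11 lay above 0 and the median was 0.04, beside -0.012 over all genes of that fit. The gene past the threshold was Pi3K21B, the adaptor subunit of the phosphoinositide kinase. It measured 26.1, 29.2 and 26.5 CPM on HF and 45.6, 48.2 and 38.9 CPM on GSF, without overlap. Its log2 fold change was 0.70 (standard error 0.10, adjusted p = 0.0118, and 0.0563 without HF replicate 1 or without GSF replicate 1). The ratio of Pi3K21B to the catalytic subunit gene Pi3K92E was 0.476 to 0.525 on HF and 0.666 to 0.828 on GSF, a ratio chosen after its values were seen. Akt, the kinase that phosphorylates FoxO, differed by 0.228 (adjusted p = 0.134) and the phosphatase gene Ptp61F by 0.196 (adjusted p = 0.124), and both passed with the block (adjusted p = 0.0333 and 0.0389). 14-3-3epsilon, whose protein binds phosphorylated FoxO, differed by 0.200 (adjusted p = 0.189). With the length trend removed, Pi3K21B passed with a log2 fold change of 0.617.

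Other FoxO targets, chosen from general knowledge of flies with earlier results of these data known, were mostly below 0. Of 10 genes, 1 was lower past the threshold, 0 were higher, and the median log2 fold change was -0.11. Of all tested genes 3.14% were lower past the threshold, and 3 of these 10 lay above 0 against 52.3% of all tested genes. The gene that passed was Pepck1, a phosphoenolpyruvate carboxykinase of gluconeogenesis, with 1014, 1166 and 1389.7 CPM on HF and 396, 478 and 350.4 CPM on GSF. Its log2 fold change was -1.54 (standard error 0.15, adjusted p = 0.00429). All exons of Pepck1 are shared with CG45087 in the annotation used here, and how the counting treated reads on both genes is not given in the sources used here. The triglyceride lipase gene bmm measured 157, 152 and 117 CPM on HF and 107, 109 and 103 CPM on GSF, without overlap (log2 fold change -0.417, adjusted p = 0.0847, and 0.0266 with the block). The Arf exchange factor gene step, which acts in insulin signalling, differed by 0.249 (adjusted p = 0.149, and 0.0276 with the block). The insulin-like peptide gene Ilp6 differed by -0.355 (adjusted p = 0.189), Lip4 by -0.134 and the adaptor gene Lnk by -0.010. Sesn differed by -0.099, Atg8a by -0.121, srl by 0.059 and upd2, at 1.32 CPM on HF, by 0.256, none of them past the threshold in either fit. Sesn shares 65.1% of its exon length with another gene on the same strand.

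The partners of Tor lay near 0, as Tor did. Of 5 further genes of the TOR complexes, 0 passed with edgeR's quasi-likelihood test and 0 had an unadjusted p under 0.05, with log2 fold changes from -0.11 to 0.13, among them raptor at 0.094, which shares 23.5% of its exon length with Mipp2, and rictor at 0.110. With the length trend removed the median of these 5 went from 0.09 to -0.01, with 2 of 5 above 0. The median over all genes of that fit was -0.012. A further list held 14 genes of the Rag GTPases, the GATOR complexes and the Lamtor anchor, which control the recruitment of Tor to the lysosome. In this list 0 passed, 3 were lower at an unadjusted p under 0.05 and 11 of 14 lay below 0, with a median of -0.12. Of all tested genes 5.14% passed, 9.90% were lower at an unadjusted p under 0.05 and 52.3% lay above 0. The lowest of the 14 was Lamtor4 at -0.248 (adjusted p = 0.131), followed by Lamtor5 at -0.218, Nup44A at -0.193 and Lamtor3 at -0.184.

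Of 6 genes through which low energy or stress restrain Tor, 1 was lower past the threshold (3.14% of all tested genes). At an unadjusted p under 0.05, 2 were lower (9.90%) and 1, chrb, was higher (9.77%). The ranges were apart with GSF lower in 2, alc and AMPKalpha (12.9% of all tested genes), and with GSF higher in 2, chrb and scyl (12.3%). The gene past the threshold was alc, the beta subunit of AMP-activated kinase, with 130.3, 139.9 and 134 CPM on HF and 106, 107 and 109 CPM on GSF. Its log2 fold change was -0.33 (standard error 0.06, adjusted p = 0.0251), and it passed with no library omitted but in none of the 6 fits that omitted one (adjusted p between 0.0640 and 0.114). The catalytic subunit gene AMPKalpha differed by -0.151 (adjusted p = 0.226) and Lkb1, the kinase that activates it, by -0.035 (adjusted p = 0.897). The REDD homologues chrb and scyl, inhibitors of Tor that act through Tsc1 and Gigas, differed by 0.405 (adjusted p = 0.107, and 0.0141 with the block) and 0.224 (adjusted p = 0.327).

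Of 12 genes whose products Tor or S6 kinase control, 1 was higher past the threshold, where 2.0% of all tested genes were. Maf1, a repressor of RNA polymerase III that Tor phosphorylates, measured 34.0, 34.8 and 35.1 CPM on HF and 48.8, 49.1 and 45.2 CPM on GSF. Its log2 fold change was 0.46 (standard error 0.07, adjusted p = 0.0124), with adjusted p = 0.0581 without HF replicate 1 and 0.0563 without GSF replicate 1. With the block 5 of the 12 were higher past the threshold, where 6.80% of all tested genes were. Besides Maf1 these were unk (0.364, adjusted p = 0.0150) and the transcription factor genes REPTOR (0.275, adjusted p = 0.0254) and Mitf (0.202, adjusted p = 0.0371). The last was Myc (0.287, adjusted p = 0.0484), named after its value was seen and sharing 40.9% of its exon length with a gene on the other strand. Apart from Maf1, none of them passed without the block. With the length trend removed and no block, unk, REPTOR, Mitf and Myc were at 0.264, 0.171, 0.126 and 0.170 (adjusted p from 0.132 to 0.472). TIF-IA differed by 0.175 (adjusted p = 0.174). The ATF4 branch, an alternative input to Thor, had 0 of 3 genes past the threshold (5.14% of all tested genes). Its genes crc (ATF4), Gcn2 and PEK were at 0.076, 0.109 and 0.086, and none had an unadjusted p under 0.05 (19.7%). The ranges were apart with GSF higher in 2 of them, crc and Gcn2 (12.3% of all tested genes). The gene crc shares 73.5% of its exon length with CG46314 on the same strand.

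**Figure D5:**
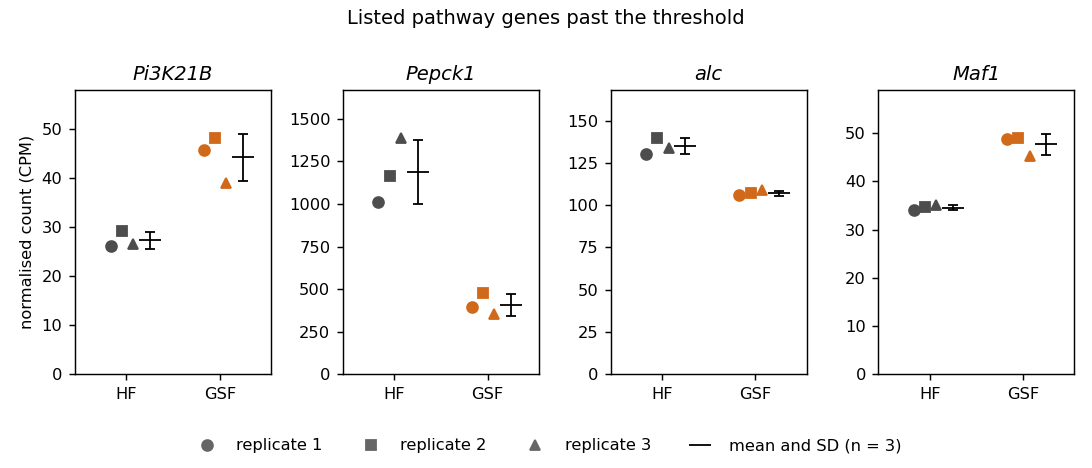
Normalised count (CPM, vertical axes from 0) of the 4 listed pathway genes past the threshold in the HF (grey) and GSF (orange) libraries, with symbols for the replicate number and bars for the mean and SD. The libraries of the diets do not overlap in any of the 4 genes, with Maf1 between 34.0 and 35.1 CPM on HF and between 45.2 and 49.1 CPM on GSF.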

How the data were processed

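The authors checked paired-end reads with FastQC, trimmed them with Trimmomatic, aligned them to bdgp6 with HISAT2 (version 2.1.0) and used SAMtools (version 1.8) and Rsubread to obtain gene counts. The deposited values are these raw counts for 17737 genes in 6 libraries. The authors also deposited their edgeR comparison (fold changes, p-values), of which only the symbols were used here.

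The main test was edgeR's two-sided quasi-likelihood test (edgeR 4.0.16, R 4.3.3), and DESeq2 1.42.0 was an alternative. It ran on 13373 genes that reached 1 CPM in 3 or more libraries, scaled by TMM, and p-values were adjusted by Benjamini-Hochberg over all of them. Each standard error was obtained by dividing the size of the log2 fold change by the square root of F. Coordinates and lengths are those of Ensembl's BDGP6.54 annotation, which holds 17599 of the genes. Tests were tried on simulated counts. The 9 genes and all lists were chosen with earlier results of these data known, and 1 gene is not reported here. The genes named are the 9, every listed gene past the threshold, all other FoxO targets, up to 4 more per list by smallest p, and the 3 genes most alike InR and Thor. Myc and Pi3K92E, outside this rule, were named after their values were seen. The 3 genes alike each were chosen by correlation of log2 CPM (prior count of 2).

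Deviations from the diet mean correlated across genes by 0.188, 0.247 and 0.476 for libraries with the same replicate number. For other pairs the correlations were -0.309 to 0.115. Deviations sum to 0 within a diet, so these correlations are not independent of each other. A fit blocked on the replicate number, which rests on these same counts, is printed where a call changes. Neither labels nor methods say what a number shares, nor that libraries came from separate vials, so p-values measure the spread between these libraries. Alternatives were other scalings, tests, filters, an unadjusted p, no ribosomal RNA genes, a length trend removed (a spline with 5 degrees of freedom), the block, and each library left out.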

Additional observations from a re-analysis of the deposited data

How the results depend on the processing

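InR kept its direction in all alternatives run. It passed the threshold with DESeq2 (log2 fold change 0.395, adjusted p = 0.0439) and with the replicate block (0.401). It also passed with the length trend removed together with the block (0.278), and at an unadjusted p under 0.05 (0.404). So 1 of the 9 genes passed in each of these and 0 in all others, the 6 fits without a library included. Of all tested genes 13.3% passed with the block and 19.7% had an unadjusted p under 0.05. DESeq2 placed 567 genes higher and 815 lower of 17287. With the length trend removed and the block, 719 were higher and 910 lower of 13277. Near 0 some directions changed. Thor lay between -0.091 and 0.062, chico between -0.052 and 0.052, gig between -0.068 and 0.034 and S6k between -0.084 and 0.067 without single libraries. With the length trend removed chico was -0.039 and Tor -0.064 (-0.040 and -0.064 with the block as well), and S6k was 0.010 with library size alone and 0.002 with 1 CPM required in all libraries. The causes were not tested.

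Of all genes, 267 were higher and 420 lower, against 470 higher with the likelihood ratio test, 567 and 815 with DESeq2, 910 and 872 with the replicate block, 719 and 910 with the length trend removed and the block, and 1307 and 1324 at an unadjusted p under 0.05. Without single libraries 48 to 224 were higher and 65 to 293 lower. Of the 61 listed genes 4 passed, against 13 with the block, 7 with the length trend removed and the block, 20 at an unadjusted p under 0.05, and 1 to 4 without single libraries, the lowest without HF replicate 1 or GSF replicate 1. The block changed no other call among the 9 genes.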
